A study of Mus musculus with 4 samples.

Results

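The genes described here are Stra8 and 32 further genes of the meiotic program, 33 in all, among the 55414 gene identifiers of a count table from mouse brain. They were chosen by symbol from what is known of the genes in germ cells, with earlier results of these data already known. By role they are 3 for entry into meiosis, 9 for the synaptonemal complex and chromosome axis, and 4 for meiotic cohesin. A further 10 are for recombination, 3 for attachment of telomeres to the nuclear envelope, and 4 are germ cell factors. All 33 matched 1 identifier each. Messenger RNA was sequenced in 4 bulk libraries, 2 labelled wild-type (WT) and 2 labelled Stra8 knockout (KO). Animals of both genotypes, by the design text of the series, carried pStra8-GFP, a green fluorescent reporter under the Stra8 promoter, and the fluorescent cells of the hippocampus were collected by sorting. The sample labels give brain as the source and do not mention a sort. Not given in the sources used here are age, sex, strain, how many animals stand behind a library, and which exons the knockout allele lacks. Xist, an RNA of the inactive X chromosome, and Y-linked transcripts were both read in every library, in a balance that differed by genotype. Nothing in the labels says that the libraries of 1 genotype came from separate animals, so p-values measure only the spread between these libraries, which may be technical.

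Meiosis is the pair of divisions by which germ cells make haploid gametes. In the testis and fetal ovary, retinoic acid binds its nuclear receptors at the Stra8 promoter, and the STRA8 protein acts with MEIOSIN to switch on genes of meiotic prophase. Cohesin complexes with meiotic subunits then organise each chromosome along an axis, SPO11 and its partners break the DNA, recombinases pair the breaks with the homologous chromosome, and the synaptonemal complex zips the homologues together. In somatic tissues such as brain most of these genes are held silent by DNA methylation and by repressors that bind the E-box and E2F6 sequences in their promoters. The stated question of the study is what the loss of Stra8 does to the transcripts of cells that use its promoter.

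Promoter sequence is shown first, because the factors named above read it: STRA8 itself, the receptors that induce Stra8, and the repressors. RefSeq promoters (GRCm38.p6) were at hand for 28 of the 33 genes, in 33 windows of the 250 bases before a start site. They serve as sequence only, since the counts were made on another build and no binding or methylation was measured here. The Stra8 window held the retinoic acid receptor half-site AGGTCA at 194 and at 38 bases before the start, shown here with 10 bases on each side and the half-site in capitals (the first at chr6:34920744-34920769, plus strand, the second at chr6:34920900-34920925, plus strand).
Stra8 first site: tggggtgaaaAGGTCAtcttgctcct
Stra8 second site: ctggggtaccAGGTCAgttttttacc
In the GENCODE M21 annotation the whole Stra8 window lies within Stra8 exons, so both sites lie before the RefSeq start only. On either strand AGGTCA was in 14.0% of all 32851 promoter windows and in 18.2% of the 33 windows of the 28 genes. These were 6 windows of 5 genes (Stra8, Hormad1, Mei1, Sycp3 and Terb1).

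The motif CNCCTCAG, through which STRA8 and MEIOSIN act in germ cells, was in 4 of the 28 genes on either strand (12.1% of their windows, against 6.42% of all windows). In capitals is the motif, or its reverse complement where the gene's strand carries that. Coordinates are chr8:84872209-84872236, plus strand for Syce2, chr11:4441174-4441201, minus strand for Hormad2, chr17:15564378-15564405, minus strand for Prdm9 and chr17:35046687-35046714, minus strand for Msh5.
Syce2: gcagagggcgCTGAGGCGggaaaagacg
Hormad2: gcaaggcctgCTGAGGGGccaaccttag
Prdm9: cttgttcccgCCCCTCAGccagctgtct
Msh5: atcgtcgcggCTGAGGTGacggaaaagg
In Syce2 and Prdm9 the match overlaps a match to the E2F6 site. The matches of Hormad2 and Prdm9 lie in stretches free of annotated exons. Those of Syce2 and Msh5 lie outside the longest such stretch of their windows. These are the genes of the 28 with the sequence that STRA8 reads in germ cells, and their transcripts are given by role below.

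The E-box CACGTG was in 30.3% of the 33 windows of the 28 genes and in 6.02% of all windows. The E2F6 site TCCCGC was in 51.5% against 16.9%, both searched on either strand. Some genes have more than 1 window, and 2 windows of Hormad1 hold the same sites. By gene, 9 of the 28 held an E-box and 14 an E2F6 site. The median GC content was 59.2% in the windows of these genes and 52.4% in all windows, and its part in these shares was not tested. Of the 33 genes, 3 are printed as examples. Sycp1 was the 1 gene that passed the test, and Hormad1 had no read in any library. Mael had the largest fold change of the 23 genes that could be tested. It entered the test through its KO libraries only, so it had to differ once it was tested, and that rank is no support. Capitals mark E-boxes, E2F6 sites (which read GCGGGA where they lie on the other strand) and AGGTCA. Sycp1 is shown at chr3:102936101-102936350, minus strand, Mael at chr1:166238748-166238994, minus strand and Hormad1 at chr3:95559427-95559676, plus strand, each up to the base nearest its start site that no annotated exon covers.
Sycp1: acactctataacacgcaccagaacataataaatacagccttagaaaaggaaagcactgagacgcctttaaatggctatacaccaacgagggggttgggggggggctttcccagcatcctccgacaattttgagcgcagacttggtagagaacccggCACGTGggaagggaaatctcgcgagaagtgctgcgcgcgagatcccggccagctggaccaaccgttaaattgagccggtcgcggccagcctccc
Mael: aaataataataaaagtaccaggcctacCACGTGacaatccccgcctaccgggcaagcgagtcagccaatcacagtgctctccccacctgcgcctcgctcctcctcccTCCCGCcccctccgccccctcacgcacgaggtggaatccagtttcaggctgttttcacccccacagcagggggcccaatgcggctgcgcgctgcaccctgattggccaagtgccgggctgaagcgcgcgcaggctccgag
Hormad1: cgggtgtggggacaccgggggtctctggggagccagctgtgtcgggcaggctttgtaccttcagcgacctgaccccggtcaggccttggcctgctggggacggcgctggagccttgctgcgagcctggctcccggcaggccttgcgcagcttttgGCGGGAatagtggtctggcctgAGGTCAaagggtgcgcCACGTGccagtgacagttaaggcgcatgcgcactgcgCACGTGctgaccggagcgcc
Sycp1 had a single E-box, 94 bases before its start, and none of the other motifs. Mael had an E-box at 223 and an E2F6 site at 143 bases before the start. Hormad1 had 2 E-boxes, an E2F6 site and a half-site. Such a match is a run of letters, not a measured binding site.

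The libraries held 71097417 to 82172740 counted reads. Of counts from 1 to 20 over all genes, 72.8% to 74.3% were even, so that both mates of a pair appear to have been counted and 2 reads can be 1 fragment. Among the 41 counts of that size in these 33 genes, 32 were even. With 2 libraries in each genotype, an exact permutation test of a single value cannot go below a two-sided p of 0.333, so the test used is edgeR's quasi-likelihood test across all 21592 genes that passed a filter on low counts (about 0.123 CPM, counts scaled to library size, in at least 2 libraries), with Benjamini-Hochberg adjustment. It called 1411 genes under an adjusted p of 0.05, 6.53% of those tested, with 723 higher (3.35%) and 688 lower (3.19%) in KO.

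The tissue behind the libraries was checked with marker lists. Transcripts of 7 pan-neuronal and neurotransmitter genes summed to 6628 to 6782 CPM, and those of 4 oligodendrocyte genes to 7632 to 8132 CPM. Cerebellar genes were also present, at 330 and 331 CPM in WT and 239 and 234 CPM in KO over 5 genes. Most of that sum was Calb1 and Zic1, of which Calb1 is also made by hippocampal neurons. The more specific Pcp2 stood at 18.6 and 19.4 CPM in WT and 7.55 and 7.22 CPM in KO, and Cbln3 and Gabra6, at 45.8 and 24.2 CPM in WT library 1, had falls of like size. Present as well were anterior pituitary genes, at 61.4 and 61.7 CPM in WT and 29.4 and 29.1 CPM in KO over 5 genes. Neither tissue is part of the hippocampus. All 5 cerebellar genes, 3 of the 4 tested pituitary genes, all 6 markers of hippocampal principal cells (344 and 346 CPM in WT, 301 and 295 CPM in KO) and 3 of 4 choroid plexus genes (614 and 613 CPM in WT, 428 and 420 CPM in KO over the 4) fell in KO, while all 4 oligodendrocyte genes and 2 of 7 neuronal genes (Syt1 and Tubb3) rose. Of astrocyte genes 2 of 4 fell, and 0 of 4 microglial and 0 of 6 motile cilia genes were called by edgeR (1 and 2 at an unadjusted p under 0.05). In bulk libraries fewer cells of a type and less RNA per cell cannot be told apart.

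Transcripts that define later germ cells were read as well. Of 7 spermatid genes, the protamines Prm1 and Prm2 and the transition proteins Tnp1 and Tnp2 had no read in any library, and no count of the others was above 6. Of 5 oocyte genes Oosp1 had no read, and Gdf9, a growth factor of the oocyte, had 73 and 85 reads in WT and 53 and 86 in KO. None of the 3 oocyte genes that could be tested was called by edgeR, and 0 had an unadjusted p under 0.05.

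Of the 33 meiotic genes, 27 had at least 1 read in every library. Of all identifiers 44.5% did, but these are not limited to protein-coding genes, so here and below the sets are unlike. Tex12, Hormad1 and Terb2 had no read in any library, as had 39.8% of all identifiers, and Meioc, Syce3 and Hormad2 had reads in 1 to 3 libraries, with no count above 6. A total of 19 genes had 10 or more reads in every library, 9 had 100 or more, and 2 had 1000 or more. The filter kept 23 genes, against 39.0% of all identifiers. Of these, Mael passed through its KO libraries only and Rec114 through its WT libraries only. The floor that a count of 0 allows, taken as 3 counts, was 0.0365 to 0.0422 CPM, for counting error only.

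**Figure D1:**
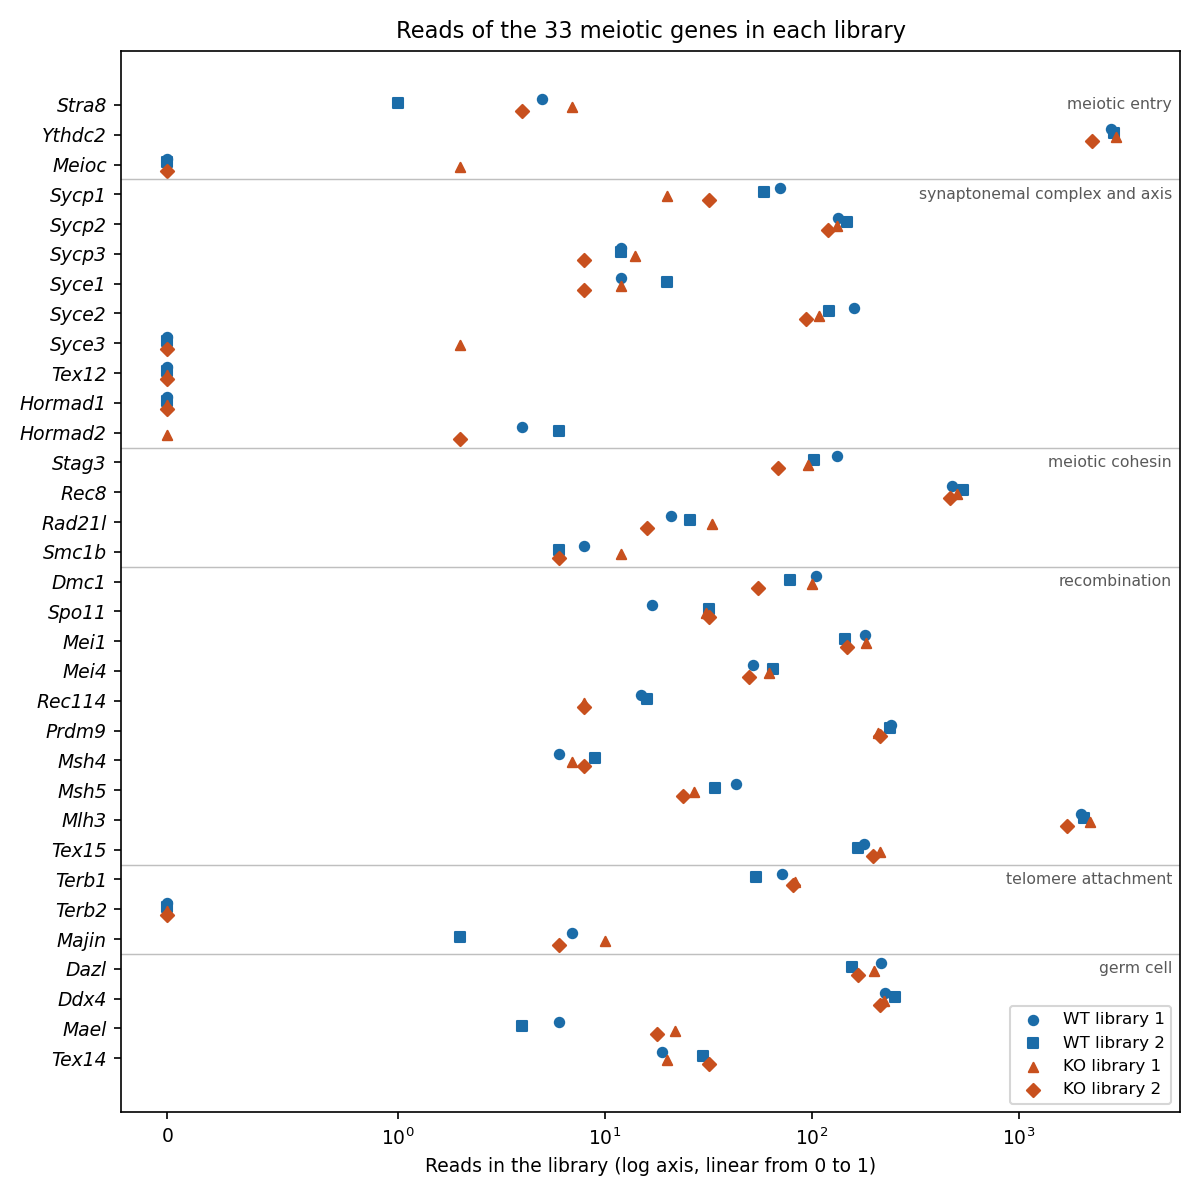
Reads of each of the 33 genes in each library (horizontal axis, log scale and linear from 0 to 1), with WT libraries in blue and KO libraries in orange and genes grouped by role. Ythdc2 and Mlh3 stand at 1712 reads or more in every library, Tex12, Hormad1 and Terb2 at 0, and the genotypes overlap for most genes.

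The 33 genes together had 7198 and 7288 reads in the WT libraries and 7514 and 6059 in the KO libraries, which is 85.2 to 91.4 CPM of the unscaled totals. Ythdc2 and Mlh3 made up 65.6% to 68.8% of them. The other 31 genes had 2421 and 2331 reads in WT and 2345 and 2083 in KO.

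Stra8 itself (ENSMUSG00000029848), the targeted gene, had 5 and 1 reads in the WT libraries and 7 and 4 in the KO libraries. The genotypes overlapped, with the lowest count in a WT library and the highest in a KO library. It did not pass the filter. In an edgeR fit without the filter its log2 fold change, KO over WT, was 0.92 (SE 1.37, 95% interval -1.77 to 3.60, adjusted p = 0.862), and across the alternative settings it ranged from 0.20 to 2.40 with none called. A difference in Stra8 was not detectable at this depth, and because the deleted exons are not known here, the reads say nothing on whether the genotype labels are right. The neighbouring genes on either side, named here by position, were Wdr91, with 1743 and 1866 reads in WT and 1633 and 1355 in KO (log2 fold change -0.18, edgeR adjusted p = 0.0502), and Slc23a4, with 18 and 24 reads in WT and 14 and 19 in KO. Neither was called.

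The partners of Stra8 at meiotic entry differed widely in level. Ythdc2, an RNA helicase that binds m6A-marked transcripts and with MEIOC lets germ cells leave the mitotic program, had 34.5 and 35.2 CPM in WT and 36.1 and 31.9 CPM in KO. Its log2 fold change was -0.03 (SE 0.049, 95% interval -0.13 to 0.07, edgeR adjusted p = 0.834), a difference narrower than the gap between the KO libraries. Meioc, its germ cell partner, had 2 reads, both in KO library 1. Meiosin, the DNA-binding partner of STRA8, listed by its older symbol Gm4969, had 36 and 44 reads in WT and 35 and 36 in KO (log2 fold change -0.07) and was not called. Its level and that of Stra8 thus rest on at most 44 reads a library.

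Sycp1, which codes for the transverse filament protein that bridges the homologues in the synaptonemal complex, was lower in KO. It had 70 and 59 reads in the WT libraries and 20 and 32 in the KO libraries, or 0.867 and 0.719 CPM against 0.244 and 0.452 CPM. Both KO libraries lay below both WT libraries. The mean was 0.793 ± 0.105 CPM in WT and 0.348 ± 0.147 CPM in KO (SD, n = 2 each), 0.435-fold, with a log2 fold change of -1.20 (SE 0.35, 95% interval -1.93 to -0.48) and an edgeR adjusted p of 0.0376. It was the 1 gene called of the 23 tested, with 0 higher and 22 not called, where the background share is 6.53%. The direction was kept in every alternative, but the call was lost without WT library 1 (log2 fold change -1.06, edgeR adjusted p = 0.203) and without KO library 1 (-0.81, edgeR adjusted p = 0.293). DESeq2 gave the gene no adjusted p, since its own filter on mean count left it out of the adjustment (unadjusted p = 0.00967, log2 fold change -1.20). DESeq2 called 7.14% of the genes to which it gave one, and 0 of the 9 meiotic genes among them. Over the alternatives in edgeR the adjusted p ran from 0.0049 to 0.293.

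Sycp1 was 1 of the 688 genes called lower in KO. The cerebellar and pituitary lists given above were lower in the same libraries. The pituitary hormone genes Gh, Prl and Pomc had log2 fold changes of -1.06, -1.21 and -1.05, while Cga, the alpha chain of the pituitary hormones, was at -0.83 and not called. The cerebellar genes Pcp2, Cbln3 and Gabra6 had -1.36, -1.23 and -1.14, and the other 2 of that list fell far less, Zic1 at -0.42 and Calb1 at -0.17. No gene of either list was at 0 in every library, though Pou1f1, the pituitary transcription factor, was at 0 in KO library 2. The gene next to Sycp1 in RefSeq's order is Tshb, the beta chain of the pituitary hormone thyrotropin, named after its values were seen, which had 22 and 10 reads in WT and 0 and 6 in KO and did not pass the filter. Of the next genes on either side, Gm33866 had no read and Nr1h5 at most 4 a library, and Tspan2, beyond Tshb, was at 0.06 on the log2 scale and not called (edgeR adjusted p = 0.0766). Of 6 markers of dividing cells 0 were called by edgeR (the 6.53% background applies) and 0 had an unadjusted p under 0.05. Their sum was 11.1 CPM in each WT library and 11.6 and 12.9 CPM in KO. On the log2 scale their 95% intervals ran from narrow in Mki67 (-0.12 to 0.32) to wide in Bub1 (-0.93 to 0.81), which had 24 to 30 reads a library. Sex-linked transcripts, a list added after the data were seen, also differed. Xist, the RNA of the inactive X chromosome, stood at 297 and 287 CPM in WT and 441 and 420 CPM in KO. The Y-linked Ddx3y stood at 27.9 and 28.1 CPM in WT and 11.9 and 11.6 CPM in KO. Of the 5 genes of the list 1 was higher and 4 lower. All 5, Xist and the Y-linked genes alike, had reads in every library. The balance between Xist and Y-linked transcripts thus differed by genotype and cannot be separated from it here. The part of any of these in the Sycp1 result was not tested.

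**Figure D2:**
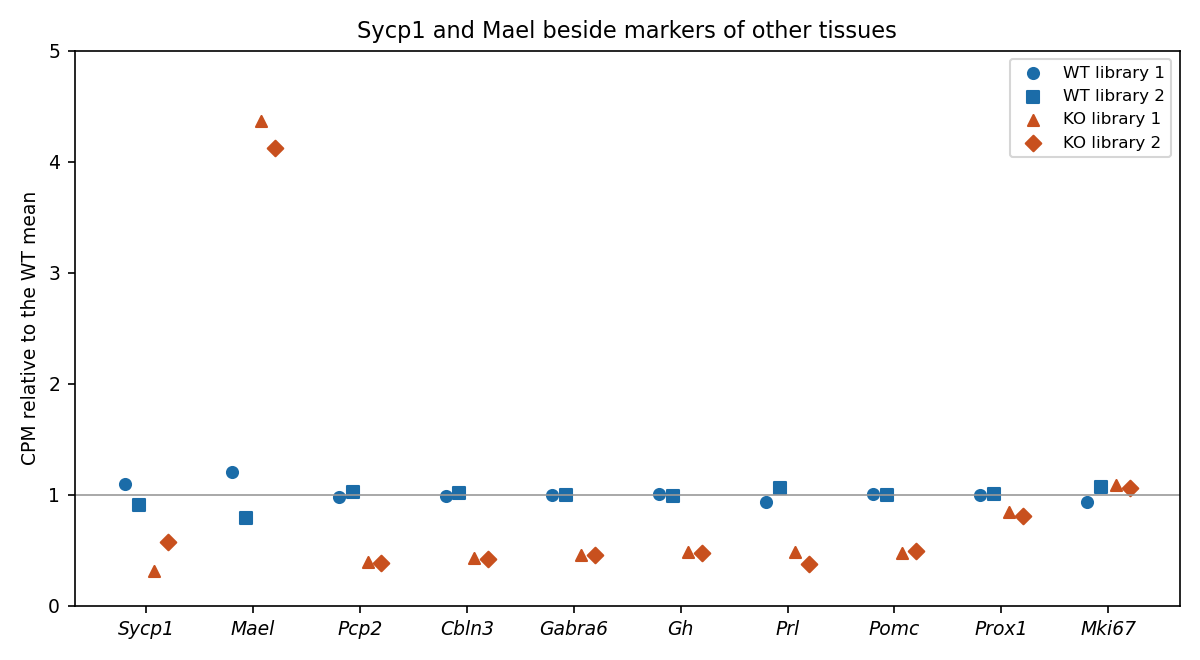
CPM of Sycp1, Mael and marker genes of cerebellum (Pcp2, Cbln3, Gabra6), pituitary (Gh, Prl, Pomc), dentate granule cells (Prox1) and dividing cells (Mki67) in each library, divided by the gene's WT mean (vertical axis, linear from 0). Points are single libraries; Sycp1 lies below the WT level in both KO libraries as do the cerebellar and pituitary genes, and Mael above it.

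None of the other synaptonemal complex and axis genes was called. Sycp2, a lateral element protein of the chromosome axis, had 134 and 149 reads in WT and 133 and 120 in KO (1.62 to 1.82 CPM, log2 fold change -0.07). Syce2, a central element protein whose promoter holds the STRA8 motif, had 160 and 121 reads in WT and 108 and 94 in KO, with a log2 fold change of -0.39 (SE 0.20, 95% interval -0.80 to 0.02, edgeR adjusted p = 0.328). Its KO libraries lay below its WT libraries without overlap, at 1.32 and 1.33 CPM against 1.98 and 1.47 CPM.

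Syce1, another central element protein, had 12 and 20 reads in WT and 12 and 8 in KO. Sycp3, the main protein of the lateral element and a common marker of meiotic cells, had 12 reads in each WT library and 14 and 8 in KO. The 660 bases that Sycp3 shares with Chpt1 on the opposite strand, 52.2% of its exons in the GENCODE M21 annotation, leave its count uncertain, since Chpt1 had 4256 to 5269 reads and how strand was used in counting is not recorded. Of the axis proteins that mark unsynapsed chromosomes, Hormad1 was not detected, and Hormad2, also with the STRA8 motif, had 4 and 6 reads in WT and 0 and 2 in KO. The central element genes Tex12 and Syce3 had 0 reads and 2 reads in all.

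Among the cohesin genes 3 were tested in edgeR, 0 were called and 0 had an unadjusted p under 0.05. Rec8, the meiotic kleisin that holds sister chromatids together, had 475 and 541 reads in WT and 504 and 468 in KO, 5.89 to 6.60 CPM. Its log2 fold change was 0.03 (SE 0.097, 95% interval -0.17 to 0.23). Stag3, the meiotic form of the SA subunit, had 132 and 103 reads in WT and 96 and 69 in KO, log2 fold change -0.42 (SE 0.22, 95% interval -0.87 to 0.03, edgeR adjusted p = 0.326), with both KO libraries below both WT libraries. Rad21l, another meiotic kleisin, had 21 and 26 reads in WT and 33 and 16 in KO, and its KO libraries lay on either side of the WT libraries. Smc1b, the meiotic SMC subunit, had 8 and 6 reads in WT and 12 and 6 in KO and was not tested.

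Recombination genes made the largest group, and 0 of the 9 tested were called by edgeR, with 1 (Tex15) at an unadjusted p under 0.05. Spo11, the enzyme that cuts DNA at the start of recombination, had 17 and 32 reads in WT and 31 and 32 in KO (log2 fold change 0.46, 95% interval -0.43 to 1.35). Mei4, a partner of SPO11 in break formation, had 52 and 65 reads in WT and 62 and 50 in KO. Mei1, also needed for the breaks, had 182 and 145 reads in WT and 183 and 148 in KO. Rec114, which binds MEI4, had 15 and 16 reads in WT and 8 in each KO library (log2 fold change -0.85, SE 0.62, edgeR adjusted p = 0.550). It passed the filter through its WT libraries only, so it had to differ once it was tested. It shares 344 bases, 26.9% of its exons, with Nptn on the opposite strand, which had 31791 to 37061 reads, so its count is uncertain.

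Prdm9, the histone methyltransferase that places recombination hotspots and 1 of the genes with the STRA8 motif, had 241 and 238 reads in WT and 209 and 214 in KO, 2.55 to 3.02 CPM. Its log2 fold change was -0.08 (SE 0.14, 95% interval -0.37 to 0.21), and KO library 2 was the highest of the 4 in CPM. Dmc1, the meiotic recombinase, had 105 and 79 reads in WT and 101 and 55 in KO, and the spread within each genotype was wider than the difference between them (log2 fold change -0.16, SE 0.25). Msh5, the last gene with the motif, which with MSH4 stabilises crossover intermediates, had 43 and 34 reads in WT and 27 and 24 in KO (log2 fold change -0.50, SE 0.40, edgeR adjusted p = 0.589). Msh4 had 6 to 9 reads a library and was not tested. Of the 4 genes with the motif 3 passed the filter, and 0 of these 3 were called, where 6.53% of all genes tested were. A count of 0 among 3 is near that share and is no result about the motif.

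Mlh3, which cuts crossover intermediates and also serves DNA mismatch repair outside the germ line, had 24.7 and 25.3 CPM in WT and 27.0 and 24.2 CPM in KO. Its log2 fold change of 0.04 had a 95% interval of -0.08 to 0.15. Tex15, a germ cell protein needed for the repair of meiotic breaks, had 180 and 168 reads in WT and 214 and 198 in KO. The KO libraries lay above the WT libraries, at 2.61 and 2.79 CPM against 2.23 and 2.05 CPM. The log2 fold change was 0.34 (SE 0.15, 95% interval 0.03 to 0.65), and the edgeR adjusted p of 0.237 missed the threshold.

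Terb1, which ties telomeres to the nuclear envelope in meiotic prophase, had 72 and 54 reads in WT and 83 and 81 in KO, log2 fold change 0.47 with SE 0.26 (edgeR adjusted p = 0.360). Its KO libraries were above its WT libraries. Majin, the membrane anchor of the same complex, had 7 and 2 reads in WT and 10 and 6 in KO, and Terb2, which joins them, had none.

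Of the germ cell factors Mael had the largest fold change of the 23 genes, and it was not called. Mael codes for Maelstrom, a protein of the piRNA pathway that silences transposons in the germ line. It had 6 and 4 reads in the WT libraries and 22 and 18 in the KO libraries, or 0.0743 and 0.0488 CPM against 0.269 and 0.254 CPM. The genotypes did not overlap. The log2 fold change was 2.06 (SE 0.65, 95% interval 0.72 to 3.40), 4.17-fold, with an edgeR adjusted p of 0.0588, and over the alternatives in edgeR the log2 fold change ran from 1.79 to 2.39 and the adjusted p from 0.0544 to 0.254. DESeq2 gave an unadjusted p of 0.016 and no adjusted p. Mael entered the test only because of its KO libraries, so it had to differ once it was tested. Oligodendrocyte genes and Xist were also higher in the KO libraries, by the values given above, and their part in the Mael values was not tested. The protamine and transition protein genes of spermatids were at 0 in these libraries too.

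Values around Mael on its chromosome were read by RefSeq's gene order, and these genes are named after their values were seen. Dusp27 had 52 and 62 reads in WT and 84 and 70 in KO (log2 fold change 0.52, edgeR adjusted p = 0.305). Ildr2, a membrane protein gene, rose by 0.11 on the log2 scale, from 184 and 176 CPM to 191 and 198 CPM (edgeR adjusted p = 0.00131). Tada1, beyond Ildr2, was at -0.027 on the log2 scale and not called (edgeR adjusted p = 0.865). Gpa33, the nearest gene on the Dusp27 side, had no read. Whether Mael and its neighbours are linked was not tested.

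The remaining germ cell factors did not differ beyond their spread. Ddx4, the RNA helicase VASA, had 226 and 254 reads in WT and 224 and 214 in KO (log2 fold change -0.04, SE 0.14). Dazl, an RNA-binding protein that licenses germ cells for meiosis, had 217 and 157 reads in WT and 201 and 168 in KO (log2 fold change 0.07, SE 0.17). Tex14, a protein of the bridges between germ cells, had 19 and 30 reads in WT and 20 and 32 in KO, higher in the second library of each genotype.

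**Figure D3:**
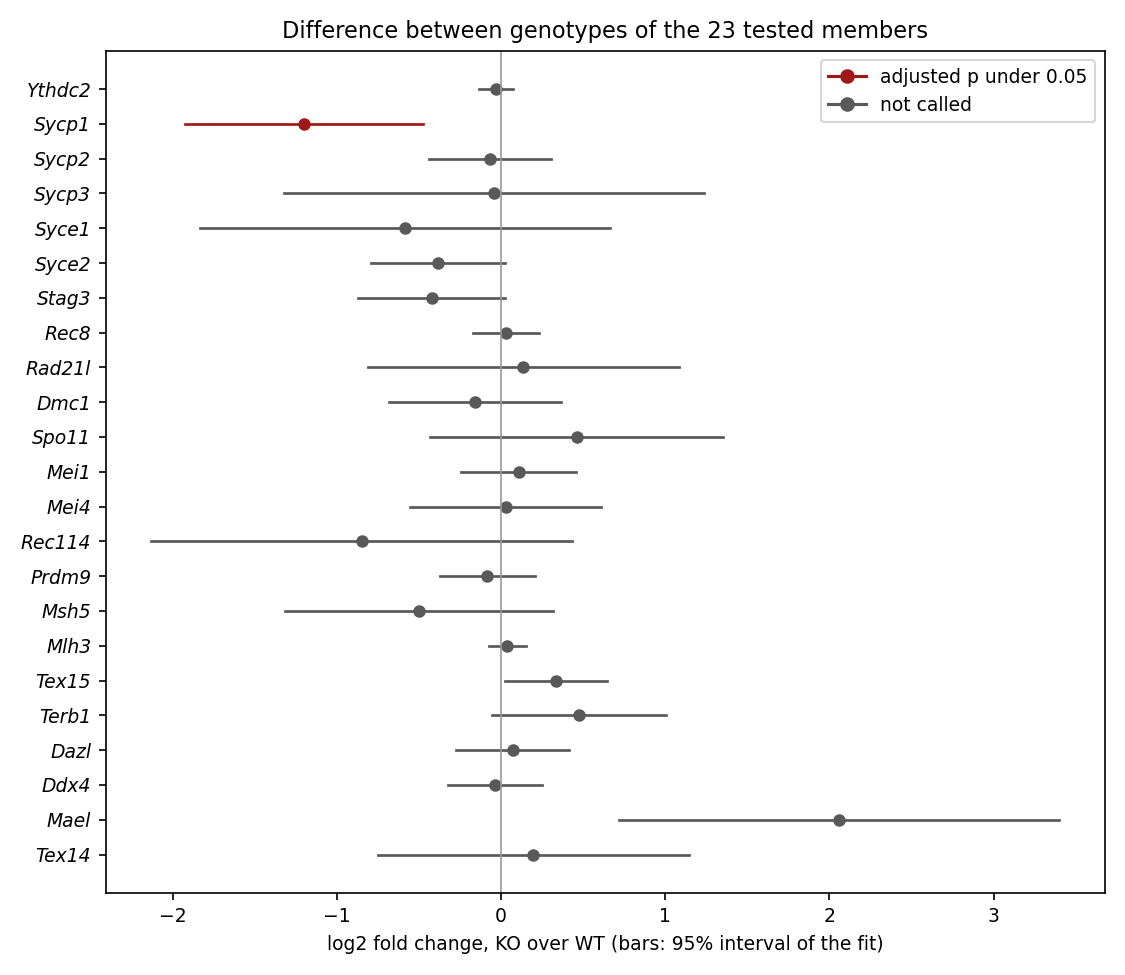
Log2 fold change, KO over WT, of the 23 genes that passed the filter (points) with the 95% interval of the edgeR fit (bars), in the order of their roles. Sycp1, in red, is the gene called; the intervals of Ythdc2 and Mlh3 are the narrowest and those of Mael, Rec114, Sycp3 and Syce1 span more than 2 log2 units.

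Over the 23 tested genes the median log2 fold change was -0.03, beside -0.00038 over all genes tested. At an unadjusted p under 0.05 there were 3 genes, Sycp1, Tex15 and Mael, where 17.4% of all genes tested passed. Without overlap between the genotypes 3 were higher (Mael, Tex15 and Terb1) and 6 lower (Sycp1, Syce1, Syce2, Stag3, Rec114 and Msh5) in KO. Over all genes tested 22.8% were higher and 22.9% lower in this way, 45.7% together, so the count of 9 among 23 is near the background and is no result about these genes. Of the members that lay apart only Sycp1 passed the test. Syce1 had 12 reads in WT library 1 and 12 in KO library 1, so it lay apart through scaling to library size alone. Mael and Rec114 had passed the filter through 1 genotype only, so their separation was fixed in advance.

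**Figure D4:**
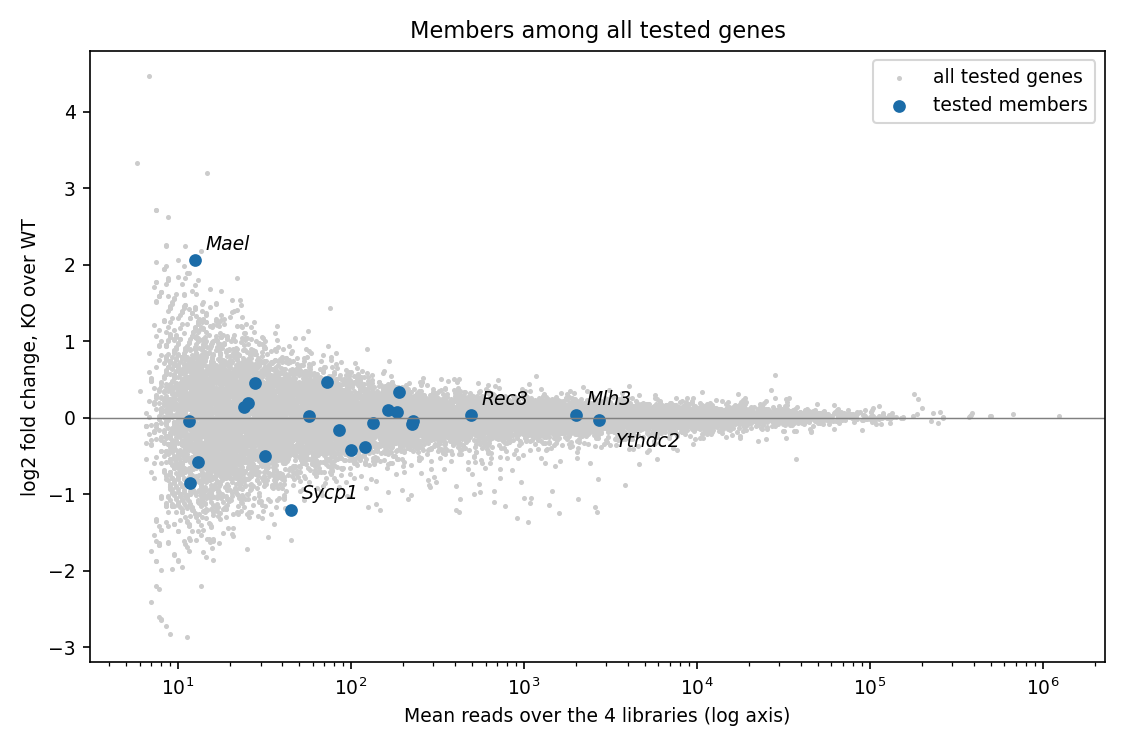
Log2 fold change, KO over WT (vertical axis), against mean reads over the 4 libraries (horizontal axis, log scale) for all 21592 tested genes (grey) and the 23 tested meiotic genes (blue). The meiotic genes lie within the cloud of all genes at their depth, with Sycp1 and Mael toward its lower and upper edge.

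Several meiotic genes have relatives that do the same step in somatic cells, and 6 such pairs, chosen by known homology, were compared per kilobase of annotated exon. These levels are CPM per kilobase within a library. Among cohesins the somatic gene was higher in all libraries: Rad21 had 26.7 to 27.5 CPM per kilobase, 11.9 to 13.7 times that of Rec8 and 111 to 200 times that of Rad21l. Smc1a was 467 to 943 times higher than Smc1b. Stag1 and Stag2 were 12.8 to 21.2 and 32.6 to 52.9 times higher than Stag3.

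Mlh3 was the higher partner of its pair: Pms2, a mismatch repair gene, stood at 0.442 to 0.508 of its level per kilobase. The order was the same in all 4 libraries, whereas the meiotic cohesins were the lower partner in each.

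**Figure D5:**
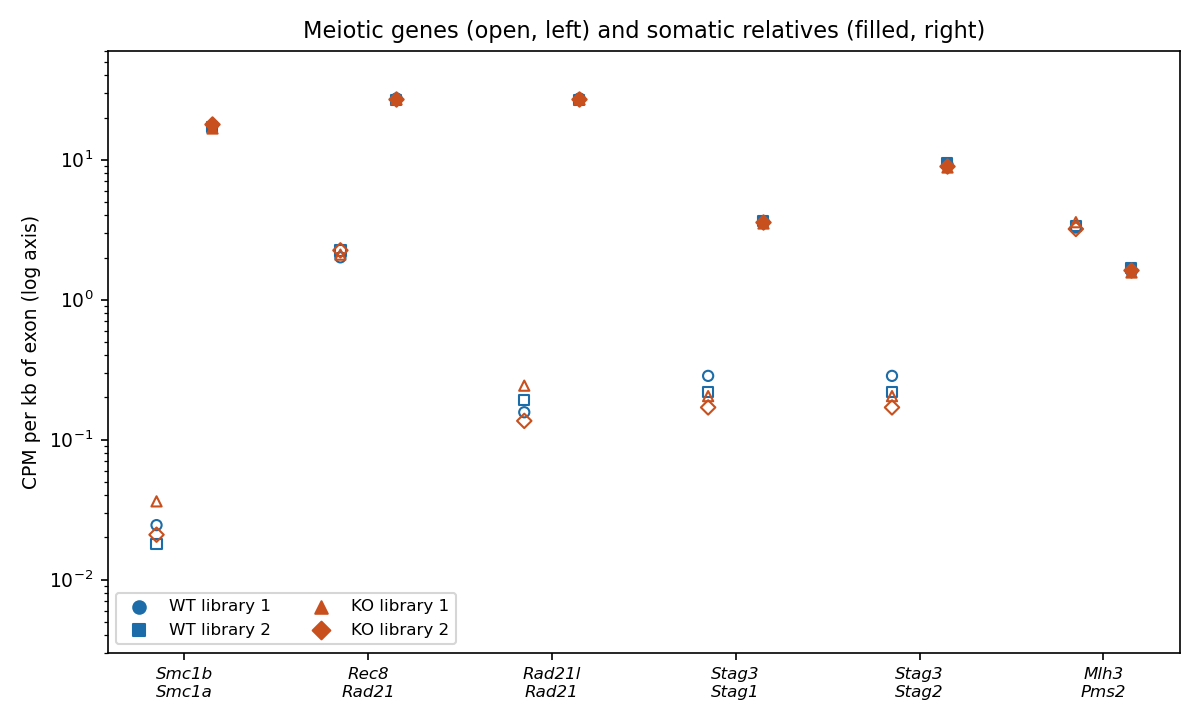
CPM per kilobase of exon (vertical axis, log scale) of 6 pairs of a meiotic gene (open symbols) and a somatic relative (filled symbols) in each library. The somatic cohesins lie more than 10 times above their meiotic relatives, while Mlh3 lies above Pms2.

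By level per kilobase, the genes fell into an order with few clear steps. Ythdc2 had 3.60 to 4.07 and Mlh3 3.20 to 3.58 CPM per kilobase, neighbouring ranges that did not overlap. Rec8 followed at 2.01 to 2.25, apart from the genes above and below it. Ddx4 came next at 0.908 to 1.03, then Syce2 at 0.670 to 1.01, Prdm9 at 0.592 to 0.701 and Dazl at 0.501 to 0.704, each with a range that overlaps its neighbour's. Every remaining gene was at 0.534 CPM per kilobase or less in each library, the highest of these values being that of Dmc1 in WT library 1.

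Further genes of the pathway were read from lists chosen by function. Of 28 other meiotic genes, 20 were tested and 0 called by edgeR, with 1 at an unadjusted p under 0.05 and a median log2 fold change of 0.08. Those with the smallest p were Brdt, the testis bromodomain protein, at 0.22 (SE 0.083, adjusted p = 0.129), Kash5, which links telomeres to the cytoskeleton, at 0.21, Psmc3ip (the HOP2 partner of DMC1) at -0.28 and Ankrd31, a partner of REC114, at -0.61. Brdt had 941 and 821 reads in WT and 1101 and 834 in KO. It passed in edgeR without WT library 1 (log2 fold change 0.34, adjusted p = 0.0153) and without KO library 2 (0.31, adjusted p = 0.0125), so its call rests on which library is in the fit. Of 25 genes of the piRNA pathway and germ cell factors, 14 were tested in edgeR and 0 called, 0 at an unadjusted p under 0.05, median -0.03. Tdrkh, a mitochondrial tudor protein of piRNA trimming, had 38.4 ± 0.814 CPM in WT and 36.4 ± 0.02 CPM in KO (SD, n = 2 each) and was not called, with Rnf17, Tdrd1 and Rbm46 at 0.35, 0.48 and 0.47 on the log2 scale, also not called.

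Genes that keep the germ line program silent elsewhere had 67 reads or more in each library. All 25 on the list were tested, with 2 higher and 1 lower in KO (the 6.53% background applies) and a median of -0.02. Dnmt3a, a DNA methyltransferase that sets new methylation, rose from 158 ± 1.44 to 171 ± 3.69 CPM (SD, n = 2 each), log2 fold change 0.11 (SE 0.021, edgeR adjusted p = 0.0015), and was called in every alternative. Yaf2, a subunit of variant Polycomb complexes, rose by 0.11 on the log2 scale (edgeR adjusted p = 0.0264), with 68.7 ± 0.248 CPM in WT and 73.9 ± 0.17 in KO. Its call was lost in each fit without 1 library (edgeR adjusted p from 0.0514 to 0.123) and in DESeq2 (adjusted p = 0.0811). Pcgf6, the core of the Polycomb complex that works with MGA, MAX and E2F6 at meiotic promoters, fell by 0.21 on the log2 scale, from 20.9 ± 0.67 to 18.1 ± 0.952 CPM (SD, n = 2 each, edgeR adjusted p = 0.033). The call was lost when WT library 1 was left out (edgeR adjusted p = 0.23), when KO library 2 was left out (0.227), and in DESeq2 (adjusted p = 0.0881). Uhrf1, the cofactor of maintenance methylation, was at -0.33 on the log2 scale (SE 0.18, edgeR adjusted p = 0.361) and not called.

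Of the 17 somatic counterparts and readers of m6A, 1 was higher and 0 lower (the 6.53% background applies), median -0.03. The gene called was Ddx3x, an X-linked RNA helicase related to VASA, at 258 ± 0.859 CPM in WT and 275 ± 1.47 CPM in KO (SD, n = 2 each), log2 fold change 0.09 (edgeR adjusted p = 0.00063). Its Y-linked copy Ddx3y was lower, with the values given beside Sycp1, and the part of the sex-linked transcripts in the Ddx3x result was not tested. Stag2 and Ythdf3 were at -0.08 and -0.07 and were not called. Of 10 genes that write, erase or act beside the m6A mark that YTHDC2 reads, 0 were called by edgeR, with a median of -0.04. In edgeR 2 of them had an unadjusted p under 0.05, where 17.4% of all genes tested did. DESeq2 called 2 genes of all these related lists, Dnmt3a and Ddx3x. The 10 include Xrn1, the exonuclease that binds YTHDC2, at -0.09, and the writer subunits Rbm15, Virma and Zc3h13 at -0.15, -0.05 and 0.05.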

How the data were processed

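TRIzol extraction, oligo dT capture and strand-specific paired-end libraries are described per the labels' protocols. The authors deposited raw counts of reads per gene for the 4 libraries. The tools named, per the submitters' processing notes, are STAR 2.6.1c, featureCounts, FastQC and DESeq2, and the build is GRCm39. Not given in the sources used here are the role of each tool, the gene annotation, how strand was set and how reads with several matches were treated. Symbols were matched for 52081 of 55414 identifiers, with older symbols for several listed genes; Spo16 was not matched.

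The test used edgeR 4.0.16 in R 4.3.3: filterByExpr by genotype (minimum count 10), TMM (factors 0.997 to 1.005), glmQLFit and glmQLFTest with genotype alone, and Benjamini-Hochberg adjustment over the 21592 genes tested, called under 0.05. CPM are scaled by TMM. The SE is the log2 fold change over the square root of F. Levels per kilobase use exon lengths of GENCODE M21 (GRCm38), another build than the counts. The procedure was also run on simulated counts with counting error of read pairs and no further variation between libraries. The outcome of that run is not used as support here. The floor of 3 counts covers counting error only, and mates of a pair are not independent. Replicate numbers are shared by the genotypes but mark no stated pairing.

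The members and lists were chosen with earlier results of these data known. Named were Stra8, every member that passed the filter, others with 10 or more reads in a library, and up to 4 genes with the smallest p of each related list; Meiosin, somatic relatives, markers and neighbours are named by choice. Some genes that these rules take are not reported here. Alternatives were a replicate block, DESeq2 size factors, library size alone, DESeq2 1.42.0, dispersion 0, no filter, a minimum count of 30, halved counts, 2 or 10 reads as detection, and each library left out.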

Additional observations from a re-analysis of the deposited data

How the results depend on the processing

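Genes called over the whole table numbered 1411, and from 1004 (DESeq2) to 1590 (replicate block) under the alternatives. Of the meiotic genes 1 was called, and 1 in all 7 edgeR alternatives with every library; the count was 0 to 1 with each library left out and 0 in DESeq2, which gave an adjusted p to 9 of the 23 tested genes and none to Sycp1. The related lists had 4 calls, 3 to 4 with each library left out, and 2 in DESeq2. Genes past the filter numbered 23, and 17 to 30 under other filters; 26 genes had at least 2 reads and 19 at least 10 reads in every library.

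The difference between WT libraries correlated with that between KO libraries at Pearson's r = 0.0164 across 21592 genes, which are not independent. A single correlation over all genes cannot exclude a pairing by replicate number that touches some of them. With the replicate block the number called was 1590, with 1 meiotic gene and 4 related genes, and Sycp1 had an edgeR adjusted p of 0.0257.

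Directions turned for 12 genes near 0, none of them called, when 1 library was left out (a lone library is then assumed to vary like the others). Over those 4 fits the log2 fold changes ran from -0.12 to 0.052 for Ythdc2, -0.38 to 0.21 for Sycp3, -0.049 to 0.12 for Rec8, -0.35 to 0.48 for Rad21l, -0.54 to 0.12 for Dmc1, -0.059 to 0.29 for Mei1, -0.11 to 0.18 for Mei4, -0.21 to 0.037 for Prdm9, -0.048 to 0.11 for Mlh3, -0.15 to 0.34 for Dazl, -0.11 to 0.038 for Ddx4 and -0.30 to 0.58 for Tex14. Fewer libraries were in each fit; the cause was not tested further. The filter left 10 genes outside the test; at this depth low expression cannot be told from none.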
